A study of Mus musculus with 2 samples.

Results

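A set of 8 genes outside the central fatty acid oxidation pathway that PPAR alpha switches on in the fasting liver were examined, namely Mfsd2a, Aldh3a2, Vnn1, Creb3l3, Ucp2, Fabp3, Cpt1b and Slc22a5. They were found by gene symbol among 13326 symbols, and 6 of the 8 had a row. Fabp3 and Cpt1b had none and were not analysed here. All 6 measured genes passed the minimum of 1 FPKM (read fragments divided by the length of the transcript and by the size of the library) in at least 1 library, as did 11985 genes in all. The list was drawn up with the comparison between the genotypes already known, so the values below describe it and test nothing.

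Liver RNA came from Adipoq-/- mice, which lack the adipocyte hormone adiponectin, and from wild-type (WT) mice. Both groups were C57BL/6J males aged 12 weeks that had fasted overnight, so no fed liver was available against which fasting induction could be checked. For each genotype the RNA of 9 to 10 animals was pooled into 1 library, and the spread between animals cannot be seen. The comparison asks how expression of genes for glucose and lipid metabolism in the liver differs without adiponectin. The targeted gene, Adipoq, was not analysed here and gives no check on the labels.

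PPAR alpha is a nuclear receptor that binds fatty acids, pairs with a retinoid X receptor and activates its targets in hepatocytes when fat stores are mobilised during fasting. Its best known targets burn fatty acids in mitochondria and peroxisomes and make ketone bodies. The genes here do neighbouring work, which includes the import of lysophospholipid and carnitine, the disposal of fatty aldehydes, the recycling of a coenzyme A precursor, mitochondrial proton leak and a transcription factor that acts beside PPAR alpha. The label is loose for Cpt1b, the muscle form of the enzyme that commits fatty acids to oxidation, and for Slc22a5, which supplies the carnitine that this enzyme uses.

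The measured genes fell into 2 sets of 3. Mfsd2a, Aldh3a2 and Vnn1 were at 26.6%, 40.6% and 39.0% of their WT level in the knockout library, as deposited, whereas Slc22a5, Creb3l3 and Ucp2 stood at 80.4%, 89.8% and 106% of it. Comparisons between the libraries are given as the log2 ratio of knockout over WT after 1 FPKM was added to each value. The median of this ratio over all 11985 genes was -0.15, and relative log2 ratios are those from which this median was subtracted. On that scale 3 of 6 genes were at least 2-fold lower in the knockout library and 0 of 6 at least 2-fold higher. Over all genes 0.476% were at least 2-fold lower and 0.884% at least 2-fold higher, and nothing is read from the difference because the list was chosen on this contrast. The same 3 genes made up the count at 1.5-fold, where the share of all genes was 2.61% lower and 6.73% higher. The median of the 6 genes was -0.56, a midpoint that falls in the gap between the sets and describes no single gene.

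**Figure D1:**
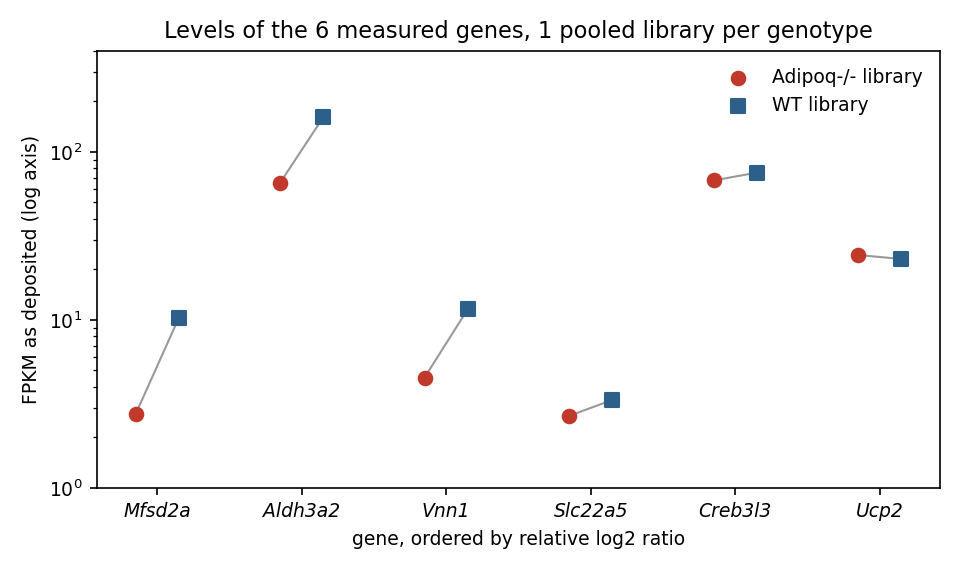
FPKM as deposited (log axis) of the 6 measured genes, with the Adipoq-/- library as circles and the WT library as squares, 1 pooled library each and therefore no error bars. The lines for Mfsd2a, Aldh3a2 and Vnn1 climb steeply toward WT, while those for Slc22a5, Creb3l3 and Ucp2 are close to level.

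The split between directions over all genes depended on scale, with 106 genes at least 2-fold higher and 57 lower on the relative scale and 55 higher and 91 lower on FPKM as deposited. Each genotype had a single library, so differences were not tested and none below has a replicate check. As a guide to how far the libraries differ for any gene, all genes were divided by mean FPKM into 10 classes of equal size, and each gene below is set against the range that held 95% of its class. In bulk liver RNA, fewer cells of a type and less RNA per cell cannot be told apart.

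Promoter windows are shown first for the genes that the split turns on, because PPAR alpha binds DNA through repeats of the element AGGTCA. RefSeq windows (build GRCm38.p6, 250 bases before to 50 after the start site, read in the direction of the gene) were at hand for 5 of the 6 measured genes, of which Creb3l3 had 2 start sites. Vnn1 had no window, so the lower set is covered only in part. Capitals mark AGGTCA or the E-box CACGTG, searched on both strands. The windows of Mfsd2a (chr4:122961139-122961438, minus strand) and Aldh3a2 (chr11:61267137-61267436, minus strand) belong to the lower set, and the downstream Creb3l3 window (chr10:81092542-81092841, minus strand) to the other.
Mfsd2a: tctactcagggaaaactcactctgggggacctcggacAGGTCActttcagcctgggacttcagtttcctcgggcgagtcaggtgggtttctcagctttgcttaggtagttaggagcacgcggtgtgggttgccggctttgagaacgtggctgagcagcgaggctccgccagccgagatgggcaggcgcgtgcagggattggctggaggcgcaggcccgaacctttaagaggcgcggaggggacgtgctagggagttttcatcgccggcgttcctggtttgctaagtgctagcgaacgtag
Aldh3a2: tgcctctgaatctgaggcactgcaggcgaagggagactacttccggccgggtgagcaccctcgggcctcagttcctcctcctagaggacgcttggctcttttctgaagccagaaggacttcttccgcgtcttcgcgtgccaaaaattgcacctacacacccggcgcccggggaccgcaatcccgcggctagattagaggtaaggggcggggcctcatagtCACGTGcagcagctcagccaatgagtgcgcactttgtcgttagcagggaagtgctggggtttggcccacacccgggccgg
Creb3l3: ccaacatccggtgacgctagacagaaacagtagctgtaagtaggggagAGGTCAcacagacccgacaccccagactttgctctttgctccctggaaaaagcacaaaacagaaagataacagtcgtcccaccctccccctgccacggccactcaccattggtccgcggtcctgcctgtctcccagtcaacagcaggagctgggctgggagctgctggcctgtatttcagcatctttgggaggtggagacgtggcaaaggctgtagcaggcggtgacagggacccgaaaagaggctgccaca
AGGTCA occurred once in the Mfsd2a window, starting 213 bases before the start site, and once in the downstream Creb3l3 window, 202 bases before it. It occurred in neither the Aldh3a2, Ucp2 or Slc22a5 window nor the upstream Creb3l3 window. Of 32851 windows of the same length, 16.3% held it. CACGTG occurred in the Aldh3a2 window alone among these windows, 30 bases before the start site, and in 7.15% of all windows.

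The full PPAR response element is a direct repeat with 1 base between its copies, AGGTCANAGGTCA, and no window of these genes held it without a mismatch. The closest stretch in each window is printed here, with capitals for the bases that match; that of Mfsd2a is read from the strand opposite to the window above and the others from the same strand.
Mfsd2a: ctGTCcgAGGTCc
Aldh3a2: AGaTtAgAGGTaA
Creb3l3 downstream: AGGggAgAGGTCA
Creb3l3 upstream: AacaCAcAtGTCA
Ucp2: gGGTaAggGGTCg
Slc22a5: AGGcCctAtGTaA
The downstream Creb3l3 stretch matched at 10 of 12 fixed letters, a closeness reached by 3.86% of all windows. The Aldh3a2 stretch matched at 9, as 24.6% of windows did or bettered. The stretches of Mfsd2a, Ucp2, Slc22a5 and the upstream Creb3l3 site matched at 8, as 79.8% of windows did or bettered. These letters say nothing about binding, which can lie far outside such a window.

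Mfsd2a, a sodium-dependent transporter that carries lysophosphatidylcholine into cells and is induced in fasted liver, had the lowest ratio of the 6. It stood at 2.74 FPKM in the knockout library and 10.3 FPKM in the WT library, which is 3.76-fold lower as deposited. Its relative log2 ratio was -1.44, the 18th lowest of 11985 genes, so that 0.142% of genes lay below it. Of the 1199 genes in its class of level, 2 had a lower ratio, and 95% of that class lay between -0.61 and 0.72. By level, Mfsd2a was the 8488th most abundant gene in the knockout and the 5023rd in the WT library. Its sister gene Mfsd2b had no row.

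Neighbours of Mfsd2a in function and in position differed less. The median relative log2 ratio of 7 other genes that handle lysophosphatidylcholine and passed the minimum was -0.23. Of these, 1 was at least 1.5-fold lower and 0 higher, beside 2.61% and 6.73% of all genes. The lower one was Lpcat3, which turns lysophosphatidylcholine back into phosphatidylcholine, at 67.1 FPKM in the knockout and 115 FPKM in the WT library (-0.61). At the other end Pla2g12b, a catalytically inactive member of the phospholipase A2 family, stood at 52.4 FPKM in the knockout and 44.1 FPKM in the WT library (0.39). The genes on either side of Mfsd2a on chromosome 4 were Cap1 (9.28 FPKM in the knockout and 14.7 FPKM in the WT library, -0.46) and Mycl, listed as Mycl1 (1.19 FPKM in the knockout and 1.38 FPKM in the WT library, 0.03).

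Aldh3a2 encodes fatty aldehyde dehydrogenase, which oxidises long-chain aldehydes from sphingolipid, ether lipid and fatty alcohol breakdown to fatty acids. It was the most abundant of the 6 in WT liver, with 65.4 FPKM in the knockout library and 161 FPKM in the WT library. In the knockout library Creb3l3 exceeded it. The difference was 2.46-fold as deposited, with a relative log2 ratio of -1.14, the 35th lowest of all genes. In its class, the most abundant of the 10, 95% of genes lay between -0.45 and 0.95, and 2 of 1199 genes had a lower ratio. Its low ratio stood farther from its class than that of Vnn1 did, at -1.39 against -1.004 with ratios centred within classes of level. Abundant genes as a class lay higher (median 0.25), and the ratio of Aldh3a2 was also the lower one before centring within classes.

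Within the aldehyde dehydrogenase family Aldh3a2 stood alone at 2-fold. Of 13 other members that passed the minimum, 0 were at least 1.5-fold lower or higher, beside 2.61% and 6.73% of all genes. Below the all-gene median lay 11 of the 13, and the median of the 13 was -0.24. The closest to Aldh3a2 was the retinal dehydrogenase Aldh1a1, at 350 FPKM in the knockout and 559 FPKM in the WT library (-0.52), followed by Aldh1a7 (-0.46). The mitochondrial enzyme Aldh2 was 652 FPKM in the knockout and 858 FPKM in the WT library (-0.24). Aldh3b1, the other Aldh3 gene with a row, was 1.15 FPKM in the knockout and 1.03 FPKM in the WT library (0.24). Aldh3a2 supplied 2.9% of the family's summed FPKM in the knockout and 5.14% in the WT library, and ranked 8 of 14 genes in the knockout and 5 of 14 in the WT library. Aldh3a1, its neighbour on chromosome 11, had no row.

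Genes whose products make or use fatty aldehydes and ether lipids lay nearer to the all-gene median than Aldh3a2. Of 11 that passed the minimum, 0 were at least 1.5-fold lower or higher, beside 2.61% and 6.73% of all genes. The median of the 11 was -0.11. The lowest was Sgpl1, the sphingosine phosphate lyase that releases a fatty aldehyde (6.47 FPKM in the knockout and 10.96 FPKM in the WT library, -0.53). The ether lipid monooxygenase gene Agmo, listed as Tmem195, came next (12.7 FPKM in the knockout and 19.5 FPKM in the WT library, -0.43).

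Vnn1, the pantetheinase that splits pantetheine into the coenzyme A precursor pantothenate and the thiol cysteamine, completed the lower set. It stood at 4.53 FPKM in the knockout library and 11.6 FPKM in the WT library, 2.56-fold lower as deposited. The relative log2 ratio was -1.04, the 50th lowest of all genes, so that Vnn1 lay just past the 2-fold line. In its class of 1198 genes 6 had a lower ratio, and 95% lay between -0.58 and 0.68. The margin and the order depended on the 1 FPKM added to each value. With 0.1 FPKM added instead, Vnn1 was at -1.16 and Aldh3a2 at -1.12.

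Vnn3, the adjacent vanin gene on chromosome 10, differed less. It stood at 23.4 FPKM in the knockout and 28.3 FPKM in the WT library (-0.11). The ratio of Vnn1 to Vnn3 inside a library, which no scaling between libraries can move, was 0.193 in the knockout and 0.411 in the WT library. The vanins are paralogs, and how the authors' counting shared reads between them is not given. The related amidase biotinidase (Btd) was 16.4 FPKM in the knockout and 25.8 FPKM in the WT library (-0.47).

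Elsewhere in coenzyme A synthesis and pantetheine turnover, 16 other genes passed the minimum, with a median of -0.10. Of these, 0 were at least 1.5-fold lower and 2 at least 1.5-fold higher, beside 2.61% and 6.73% of all genes. The higher ones were Nudt7, the peroxisomal hydrolase that degrades coenzyme A (945 FPKM in the knockout and 689 FPKM in the WT library, 0.61), and Nudt8 (28.4 FPKM in the knockout and 20.7 FPKM in the WT library, 0.59). The pantothenate kinases Pank3 (-0.52), Pank1 (-0.28) and Pank2 (-0.11), which start the synthesis, lay on the lower side of the all-gene median without reaching 1.5-fold. So did Pank4 (-0.18), which is related to them by sequence and is not counted here as a kinase of that step.

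**Figure D2:**
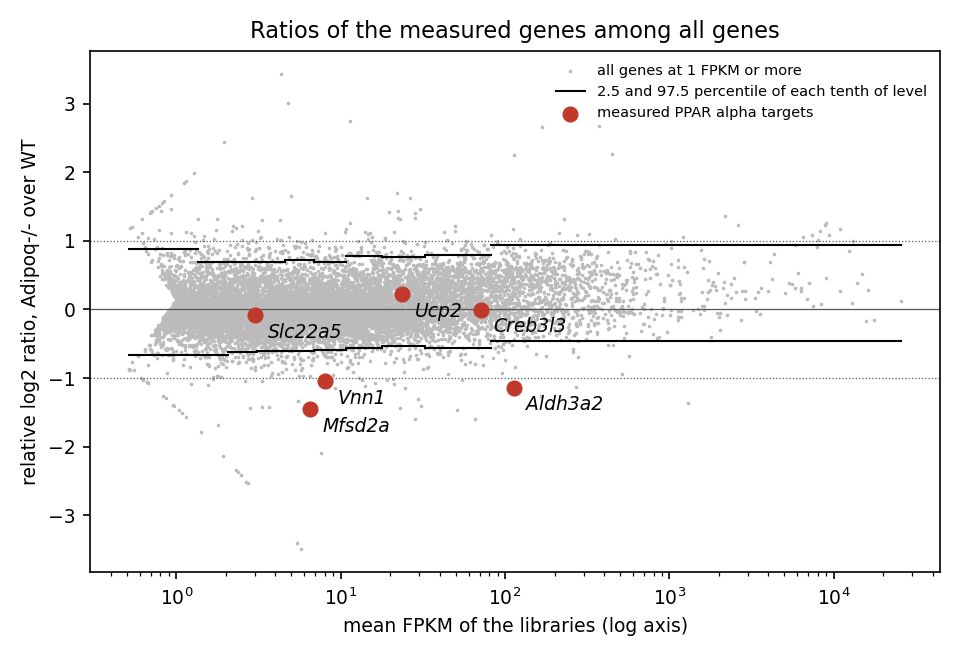
Relative log2 ratio of the Adipoq-/- over the WT library against mean FPKM (log axis) for 11985 genes (grey) and the 6 measured genes (red). Black lines bound the middle 95% of each class of level and dotted lines mark 2-fold. Mfsd2a, Aldh3a2 and Vnn1 lie below the lower bound of their class, and Slc22a5, Creb3l3 and Ucp2 lie inside it.

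Slc22a5, the plasma membrane carrier OCTN2 that brings carnitine into cells with sodium, was the scarcest of the 6 in both libraries. It was listed at 2.68 FPKM in the knockout library and 3.34 FPKM in the WT library. The relative log2 ratio was -0.08, with 38.0% of all genes lower, well inside the range of its class (-0.63 to 0.69). In the knockout library it and Mfsd2a were nearly level, whereas in WT Mfsd2a was far above it.

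The relatives of Slc22a5 on chromosome 11 were scarcer still. Slc22a4, a carrier of ergothioneine, was 1.17 FPKM in the knockout and 1.68 FPKM in the WT library (-0.15). Slc22a21, next to Slc22a5, was 0.565 FPKM in the knockout and 0.842 FPKM in the WT library, under the minimum. Slc22a5 made up 60.7% of the summed FPKM of these 3 genes in the knockout and 56.9% in the WT library. Among 9 other genes of carnitine synthesis, transport and use, 1 was at least 2-fold lower and 0 were at least 1.5-fold higher (median -0.15). The shares of all genes at these thresholds were 0.476% and 6.73%. The lower one was Crat, the carnitine acetyltransferase, at 12.4 FPKM in the knockout and 29.02 FPKM in the WT library (-1.01). Of the mitochondrial steps, Cpt1a was at 33.4 FPKM in the knockout and 40.7 FPKM in the WT library (-0.13), Cpt2 at 40.1 FPKM in the knockout and 54.3 FPKM in the WT library (-0.28) and the carnitine carrier Slc25a20 at 47.8 FPKM in the knockout and 59.0 FPKM in the WT library (-0.15). Cpt1a was the only Cpt1 gene with a row.

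Creb3l3 encodes CREBH, a liver-enriched transcription factor held in the endoplasmic reticulum until proteases of the Golgi release it, which works with PPAR alpha on fasting genes. It stood at 67.6 FPKM in the knockout library and 75.3 FPKM in the WT library. Its relative log2 ratio was -0.001, as near to the all-gene median as the list came, with 49.8% of genes lower. This was lower than most of its own class of level, where 411 of 1198 genes had a lower ratio. It supplied 54.8% of the summed FPKM of its family and processing factors in the knockout and 54.4% in the WT library, ahead of Creb3 (37.3 FPKM in the knockout and 39.1 FPKM in the WT library, 0.08). The proteases that release it, Mbtps1 (-0.19) and Mbtps2 (-0.10), were also under 1.5-fold apart.

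Reported targets of CREBH spread to both sides while its own transcript hardly differed. Of 16 that passed the minimum, 3 were at least 1.5-fold lower and 2 at least 1.5-fold higher, and their median was 0.07 on the relative scale, -0.09 as deposited and -0.24 with equal summed FPKM. Over all genes 2.61% were at least 1.5-fold lower and 6.73% at least 1.5-fold higher. The lower targets were the lipid droplet gene Cidec (0.913 FPKM in the knockout and 4.73 FPKM in the WT library, -1.43), the fatty acid elongase Elovl5 (-1.25) and the desaturase Fads2 (-0.68). Cidec is also counted among the PPAR alpha targets below. The higher targets were Apoc2, the cofactor of lipoprotein lipase (883 FPKM in the knockout and 649 FPKM in the WT library, 0.59), and Pck1, which drives gluconeogenesis (196 FPKM in the knockout and 145 FPKM in the WT library, 0.59).

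Ucp2, an inner mitochondrial membrane carrier of the uncoupling protein family, was the only one of the 6 with a higher value in the knockout library, at 24.3 FPKM against 23.02 FPKM in the WT library. The relative log2 ratio of 0.23 lay inside the range of its class (-0.53 to 0.76), and it turned to -0.08 when the libraries were scaled to equal summed FPKM. Ucp1 and Ucp3, its neighbour on chromosome 7, had no row, so Ucp2 was the one classical uncoupling protein listed. Of the related carriers, Slc25a30 was 2.73 FPKM in the knockout and 6.06 FPKM in the WT library (-0.77), and Slc25a14 was 1.68 FPKM in the knockout and 2.41 FPKM in the WT library (-0.19).

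In normal liver Ucp2 is also known from Kupffer cells, the resident macrophages, whose markers were therefore set beside it. Of 18 Kupffer cell genes that passed the minimum, 14 lay above the all-gene median, 2 were at least 1.5-fold higher and 0 at least 1.5-fold lower. The 2 higher ones were Marco (3.72 FPKM in the knockout and 1.26 FPKM in the WT library, 1.21) and Lyz2 (0.82). At 1.5-fold the shares of all genes were 6.73% higher and 2.61% lower. The median of the 18 genes was 0.22 and became -0.09 with equal summed FPKM. Their summed level was 389 FPKM in the knockout and 345 FPKM in the WT library. The defining marker Clec4f was 48.9 FPKM in the knockout and 52.04 FPKM in the WT library (0.06), Cd5l was 31.2 FPKM in the knockout and 32.4 FPKM in the WT library (0.10), and Vsig4 was 17.7 FPKM in the knockout and 14.8 FPKM in the WT library (0.40). The part of these cells in the level of Ucp2 was not tested.

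Fabp3 and Cpt1b are best known from heart and skeletal muscle and had no row, and little else of muscle was listed. A missing row does not show that a transcript was absent. In every listed row the higher library was at 0.548 FPKM or more. Of 22 skeletal muscle markers 5 had a row, and they summed to 11.4 FPKM in the knockout and 12.2 FPKM in the WT library. Acta1 was 1.66 FPKM in the knockout and 1.77 FPKM in the WT library, while Ckm and Myh4 had no row. Of 14 heart muscle markers 2 had a row, and Myh6 and Tnni3 had none. Other fatty acid binding proteins were listed, with Fabp1, the liver form, at 12633 FPKM in the knockout and 13092 FPKM in the WT library (0.10). Fabp5 was 61.9 FPKM in the knockout and 42.5 FPKM in the WT library (0.68), Fabp7 was 6.92 FPKM in the knockout and 4.87 FPKM in the WT library (0.58), Fabp4 was 10.95 FPKM in the knockout and 9.61 FPKM in the WT library (0.32), and Fabp2 was 142 FPKM in the knockout and 183 FPKM in the WT library (-0.21). The median of these 5 genes was 0.32 on the relative scale and 0.01 with ratios centred within classes of transcript length.

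Transcripts of PPAR alpha and its main partner lay close to the all-gene median. Ppara was 31.7 FPKM in the knockout and 36.5 FPKM in the WT library (-0.05), and its partner Rxra was 41.1 FPKM in the knockout and 50.5 FPKM in the WT library (-0.14). Of 22 receptors and cofactors that passed the minimum, 1 was at least 1.5-fold lower and 0 higher, with a median of -0.12. At 1.5-fold the shares of all genes were 2.61% lower and 6.73% higher. The lower one was Pparg, the adipocyte relative of PPAR alpha, at 3.54 FPKM in the knockout and 7.74 FPKM in the WT library (-0.79). The count depends on the 1 FPKM added, which understates differences of scarce cofactors. Nrip1 was 0.383 FPKM in the knockout and 1.13 FPKM in the WT library (-0.47). Sirt1 was 0.701 FPKM in the knockout and 1.37 FPKM in the WT library (-0.33). Ppargc1a, a coactivator of PPAR alpha in fasting, was under the minimum at 0.335 FPKM in the knockout and 0.636 FPKM in the WT library. Inside a library, Mfsd2a stood at 0.0863 of the Ppara level in the knockout and 0.282 in WT, Aldh3a2 at 2.06 times in the knockout and 4.41 times in WT, and Vnn1 at 0.143 in the knockout and 0.318 in WT. Creb3l3 was 2.13 times the Ppara level in the knockout and 2.06 times in WT.

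Other PPAR alpha targets, taken from a pair of lists without the 8 genes, lay mostly on the lower side of the all-gene median. Of 67 that passed the minimum, 55 were below the all-gene median, 14 at least 1.5-fold lower, 5 at least 2-fold lower and 0 at least 1.5-fold higher, with a median of -0.26. The shares of all genes at these lower thresholds were 2.61% and 0.476%. These lists too were chosen with earlier results of these data known, so nothing is read from the difference. The 37 targets in oxidation and ketone synthesis had a median of -0.26 and included 1 at 2-fold, the fatty acid hydroxylase Cyp4a14 (15.2 FPKM in the knockout and 46.5 FPKM in the WT library, -1.40). The 30 targets in lipid uptake, storage and glycerol use had a median of -0.23. Among them Pltp (-1.46), Cidec (-1.43), Cd36 (-1.08) and Pdk4 (-1.04) were at 2-fold and Txnip (0.49) and Angptl4 (0.50) highest. The medians of the oxidation list and the uptake list moved to -0.57 and -0.55 with equal summed FPKM. With ratios centred within classes of level they were -0.46 and -0.47. On the relative scale Mfsd2a at -1.44 thus lay next to Pltp and Cidec, and Slc22a5, Creb3l3 and Ucp2 lay above both list medians. That nearness depended on the 1 FPKM added, which narrows the difference of a scarce gene more than that of an abundant one. Cidec was 0.913 FPKM in the knockout and 4.73 FPKM in the WT library. Pltp was 24.5 FPKM in the knockout and 76.8 FPKM in the WT library.

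**Figure D3:**
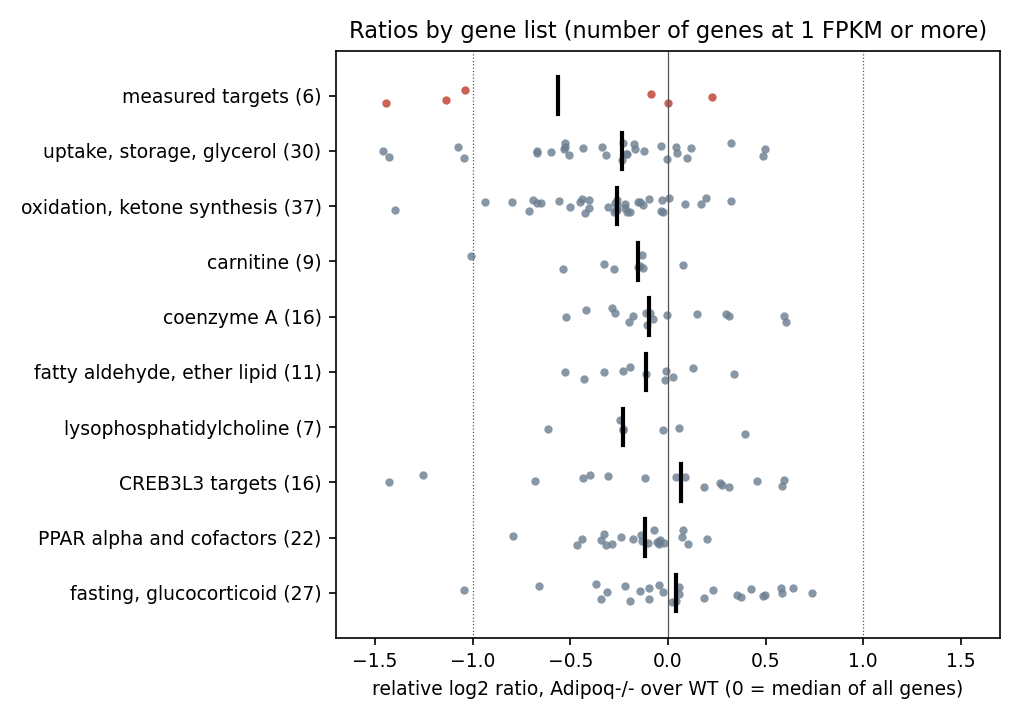
Relative log2 ratio of the Adipoq-/- over the WT library for the 6 measured genes (red) and for the genes of 9 related lists (grey), with 1 point per gene, a black bar at each list median and dotted lines at 2-fold. The 6 genes leave a gap between -1.04 and -0.08, while the other PPAR alpha target lists hold genes throughout that gap, with medians of -0.23 and -0.26.

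A list of genes that answer fasting and glucocorticoids, which shares Pdk4, Txnip, Angptl4 and Lpin1 with the PPAR alpha target lists and Pck1 and G6pc with the CREBH targets, had its median near that of all genes. Its median over 27 genes that passed the minimum was 0.04 on the relative scale and -0.11 as deposited. Of these, 2 were at least 1.5-fold lower and 3 at least 1.5-fold higher, beside 2.61% and 6.73% of all genes. Besides Pdk4, the lower one was the CREB coactivator Crtc2 (5.55 FPKM in the knockout and 10.5 FPKM in the WT library, -0.66). The higher ones were Tsc22d3 (0.74), the metallothionein Mt2 (0.64) and Pck1 (0.59).

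Liver identity was clear in both libraries, with albumin (Alb) at 14031 FPKM in the knockout and 17522 FPKM in the WT library. The 20 hepatocyte markers had a median of 0.004, with 0 at least 1.5-fold apart. That median was -0.15 as deposited, -0.31 with equal summed FPKM and -0.24 with ratios centred within classes of level. Of 13 adipocyte markers 6 had a row and passed the minimum, with a median of -0.36, while the defining markers Plin1, Lep and Retn had no row. Cfd, the serine protease adipsin, lay lower than any of the 6 measured targets, at 2.01 FPKM in the knockout and 13.3 FPKM in the WT library (-2.09). Pparg was the other adipocyte marker at least 1.5-fold lower. The adipocyte markers summed to 3488 FPKM in the knockout and 4015 FPKM in the WT library, most of it from Rbp4 and Car3, which liver also expresses. The remaining cell lists had 0 genes at least 1.5-fold lower. At least 1.5-fold higher were 2 of 5 lymphocyte, 1 of 4 cholangiocyte and 1 of 1 heart muscle genes. So were 0 of 3 neutrophil, 0 of 4 skeletal muscle, 0 of 15 endothelial and 0 of 11 stellate cell genes. Over all genes 2.61% were at least 1.5-fold lower and 6.73% at least 1.5-fold higher, and nothing is read from counts in lists this small. The heart muscle gene, Myl7, was at 0.69 on the relative scale and at 0.38 with ratios centred within classes of transcript length. The part of any of these cell types in the lower set was not tested.

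The ratio also varied with transcript length over all genes, from a median of 0.40 in the shortest of 10 length classes to -0.12 in the longest. Transcripts of the 6 genes were 2151 (Mfsd2a), 2294 (Creb3l3), 2416 (Vnn1), 3062 (Slc22a5), 3091 (Aldh3a2) and 3988 (Ucp2) bases long in the GENCODE annotation. The medians of their length classes ran from -0.04 to -0.09. The part of length in the ratios of the 6 genes was not tested beyond centring within these classes. With ratios centred within length classes Vnn1 was at -1.0001, the narrowest margin at 2-fold among the settings tried.

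**Figure D4:**
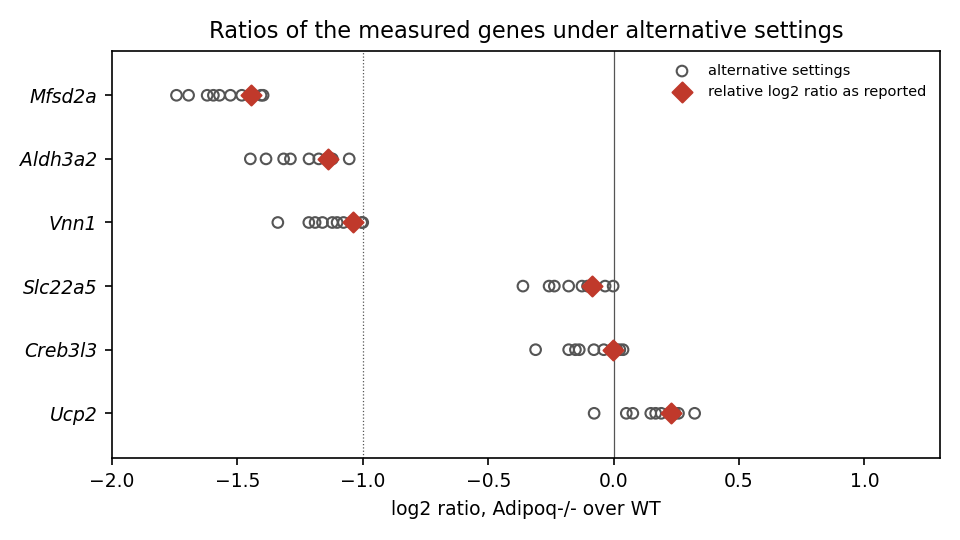
Log2 ratio of the Adipoq-/- over the WT library for the 6 measured genes as reported (diamonds) and under the alternative settings (open circles), 11 for each gene except Slc22a5 with 10. Mfsd2a, Aldh3a2 and Vnn1 stay at or beyond the dotted 2-fold line, and Slc22a5, Creb3l3 and Ucp2 stay near 0, with both signs for Creb3l3 and Ucp2.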

How the data were processed

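Liver RNA of Adipoq-/- and WT mice was measured in 1 pooled library per genotype, each assigned by its genotype label. The deposited values are FPKM per gene symbol. The builds mm9 and NCBIM37 and the tools TopHat and Cuffdiff are named in the submitters' processing notes, and their roles, versions, annotation and filters were not given in the sources used here. Both tables list the same 13352 rows; of 26 symbols in 2 rows, the one with the higher mean was used. Depth is unknown, since low values showed no steps shared by genes that would return whole reads (at most 5 of 1298 genes shared a log2 ratio to 3 decimals).

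Ratios were log2((knockout FPKM + 1) / (WT FPKM + 1)) for genes with at least 1 FPKM in 1 or both libraries, a scale that understates differences of low genes, and the all-gene median was subtracted. The calculation was tested on simulated data (Python 3.11.15, pandas 2.3.3, numpy 2.4.6). Only genes more abundant than Mfsd2a, Vnn1 and Slc22a5 were changed there, so ratios at the level of these genes were not tested. Transcript length was the longest GENCODE M21 transcript per symbol, matched for 96.5% of genes. Members and lists were chosen with earlier results of these data known. Named genes were the members, their families, the extremes of the pathway lists, hallmark genes and neighbours on the chromosome, the last added for position; of the cell lists mainly counts are given. PPAR alpha and CREB3L3 target lists rest on general knowledge. Some genes that the naming rule takes are not reported here.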

Additional observations from a re-analysis of the deposited data

How the results depend on the processing

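Under 11 alternative settings, 3 of the measured genes were at least 2-fold lower every time and 3 at least 1.5-fold lower. The log2 ratio ranged from -1.74 to -1.40 for Mfsd2a, from -1.45 to -1.05 for Aldh3a2, from -1.34 to -1.0001 for Vnn1, from -0.36 to -0.002 for Slc22a5, from -0.31 to 0.04 for Creb3l3 and from -0.08 to 0.32 for Ucp2. A value was counted as moved past 1.5 times its fold or count, since no replicate spread exists, and 108 of 120 values under the alternatives were not. Scaling between libraries shifted genes nearly alike, with the all-gene median at -0.28 at the farthest (equal summed FPKM). It could therefore scarcely move the ratio of a gene past that line. The 12 that moved were counts over all genes, against 106 at least 2-fold higher and 57 lower as reported. They were 236 higher and 183 lower with a pseudocount of 0.1 FPKM, 166 and 93 with 0.5 FPKM, 55 and 91 with FPKM as deposited, 42 and 159 with equal summed FPKM, and 51 and 98 with equal sums without Mup and mt- symbols. The higher count alone moved to 48 with a minimum of 5 FPKM, where fewer genes were tested, and to 42 with ratios centred within length classes. Slc22a5 was under the minimum of 5 FPKM and has no value there, which left 5 genes with a median of -1.08; otherwise the median ran from -0.50 to -0.85. No paired analysis was possible because each genotype has 1 library. The unknown depth leaves the precision of low values such as those of Slc22a5 and Mfsd2a unstated.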
